A study of Homo sapiens with 12 samples.

Results

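The NRF2 pathway genes described here are 10 genes found by their symbol in the deposited expression table: NFE2L2, KEAP1, NQO1, GCLC, GCLM, TXNRD1, SRXN1, SLC7A11, AKR1C1 and AKR1B10. The table lists 60715 genes, and 10 of the 10 were among the 17395 genes with enough reads to be tested. RNA was sequenced from 4 established human lung adenocarcinoma lines, NCI-H2228, LC-2/ad, NCI-H2009 and HCC4006. As background, they are known for different drivers, an ALK fusion in NCI-H2228, a RET fusion in LC-2/ad and an EGFR deletion in HCC4006. Each line gave 1 library in each of 3 states: attached in ordinary culture, and 1 day or 7 days after trypsin treatment and plating on an ultra-low attachment surface, which keeps cells in suspension. RPMI-1640 medium with fetal bovine serum, penicillin and streptomycin was used throughout, and no drug or gene change was applied. The attached libraries carry no time label, so loss of attachment, trypsin and time in culture cannot be told apart. No line has a second library of the same state.

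NRF2, the protein of NFE2L2, is a transcription factor that raises the cell's defence against oxidants and reactive chemicals. KEAP1 binds NRF2 in the cytoplasm and presents it to a ubiquitin ligase for destruction, and oxidants or electrophiles that modify cysteines of KEAP1 stop this. NRF2 then pairs with a small MAF protein and binds antioxidant response elements near its targets, which make glutathione, recharge thioredoxin, supply NADPH and reduce quinones and aldehydes. In lung adenocarcinoma the pathway is known for lasting activation through mutations of KEAP1 or NFE2L2. Loss of attachment to the matrix is known to raise oxidant levels in epithelial cells.

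The core of the antioxidant response element, TGACNNNGC, was searched on both strands in promoter windows of 300 bases, from 250 bases before to 50 bases after an annotated gene start (RefSeq, GRCh38.p14). Entries were found for 8 of the 10 genes, with 11 windows in all, and the core occurred in 4 windows of 3 genes, KEAP1, GCLM and TXNRD1. Among all 35116 windows 13.35% held it. SLC7A11 and AKR1B10 had no entry. The 4 windows with a match are shown because they carry the letters that NRF2 is known to bind, and the NQO1 window because NQO1 had the highest level of the 10 genes per transcript length and no match there. All are written 5′ to 3′ on the strand of the gene, with the matched core in capitals. The windows are chr1:93909381-93909680 (minus strand) for GCLM, chr12:104215529-104215828 and chr12:104286782-104287081 (plus strand) for TXNRD1, chr19:10502722-10503021 (minus strand) for KEAP1 and chr16:69726511-69726810 (minus strand) for NQO1.
GCLM: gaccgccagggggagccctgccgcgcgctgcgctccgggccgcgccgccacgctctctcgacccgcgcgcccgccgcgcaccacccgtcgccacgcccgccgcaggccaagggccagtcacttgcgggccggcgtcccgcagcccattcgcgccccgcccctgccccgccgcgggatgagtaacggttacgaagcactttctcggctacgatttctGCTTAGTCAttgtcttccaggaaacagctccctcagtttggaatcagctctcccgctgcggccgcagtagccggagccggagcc
TXNRD1, first window: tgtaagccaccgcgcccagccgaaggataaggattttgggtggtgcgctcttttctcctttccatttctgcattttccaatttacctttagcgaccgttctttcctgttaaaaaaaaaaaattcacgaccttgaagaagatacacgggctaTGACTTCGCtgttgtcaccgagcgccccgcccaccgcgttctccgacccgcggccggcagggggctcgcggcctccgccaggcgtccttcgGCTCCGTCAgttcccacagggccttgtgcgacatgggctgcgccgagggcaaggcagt
TXNRD1, second window: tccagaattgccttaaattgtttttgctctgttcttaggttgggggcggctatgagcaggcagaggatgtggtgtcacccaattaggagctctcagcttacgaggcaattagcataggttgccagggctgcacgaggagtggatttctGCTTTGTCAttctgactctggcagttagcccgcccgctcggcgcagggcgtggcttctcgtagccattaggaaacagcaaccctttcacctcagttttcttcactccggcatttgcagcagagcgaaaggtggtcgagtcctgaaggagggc
KEAP1: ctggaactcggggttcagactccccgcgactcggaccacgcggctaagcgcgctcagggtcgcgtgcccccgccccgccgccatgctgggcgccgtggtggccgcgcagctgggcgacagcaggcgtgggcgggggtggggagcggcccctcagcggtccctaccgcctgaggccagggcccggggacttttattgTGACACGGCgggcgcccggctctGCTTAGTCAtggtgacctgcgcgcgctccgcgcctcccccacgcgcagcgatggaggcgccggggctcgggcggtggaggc
NQO1: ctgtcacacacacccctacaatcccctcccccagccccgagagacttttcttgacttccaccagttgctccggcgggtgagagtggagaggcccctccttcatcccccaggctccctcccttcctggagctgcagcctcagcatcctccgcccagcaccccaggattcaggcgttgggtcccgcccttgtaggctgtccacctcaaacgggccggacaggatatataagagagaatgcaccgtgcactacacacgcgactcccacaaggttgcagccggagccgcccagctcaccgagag
Read on the strand that carries it, the core was TGACTAAGC in GCLM, 34 bases before the start. The same 9 letters stood 31 bases before the start in the KEAP1 window shown. That window held TGACACGGC as well, 54 bases before its start. KEAP1 had another window, of a different annotated start (chr19:10503307-10503606), with no match. The TXNRD1 windows held TGACTTCGC 99 bases and TGACGGAGC 8 bases before the first start, and TGACAAAGC 102 bases before the second. A match is a description of the letters and not a measured binding site. The window covers 300 bases only, and elements farther away were not searched.

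The libraries held between 31134420 and 41882024 estimated counts. Epithelial markers were present in each library (8 of 8 markers; EPCAM 204 to 1634 TPM, the lung factor NKX2-1 26.5 to 107 TPM), and PTPRC, which defines leukocytes, was at 0.834 TPM or less. TPM gives the share of transcripts that come from a gene, corrected for transcript length and scaled to the same total in each library. The summed level of the 8 epithelial markers was lowest in NCI-H2228, at 3701 to 5289 TPM, against 7941 to 19813 TPM in the other lines. The 6 fibroblast markers added up to 40.1 to 347 TPM in NCI-H2228, nearly all of it the collagen gene COL1A1 at the high end, against 4.39 to 54.4 TPM in the other lines, whereas COL3A1 was at 0.135 TPM or less in the 12 libraries and DCN at 0 in 8 of them. Not all such markers were near 0, since the fibroblast marker LUM reached 43.4 TPM and the leukocyte marker CD68 59.3 TPM. The part of these differences in the results was not tested. In NCI-H2009, 25.0% of all genes tested were at least 2-fold higher at day 7 than at day 1, against 2.08% to 3.47% in the other lines.

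The level of the 10 genes differed mainly between cell lines. NCI-H2228 was higher than the mean of the other 3 lines for 10 of 10 genes in edgeR's quasi-likelihood test with Benjamini-Hochberg adjustment over all genes, where 20.7% of all genes tested were higher and 15.8% lower. The median log2 difference of the 10 genes was 2.41, against 0.05 for all genes tested. The 3 NCI-H2228 libraries lay above the other 9 for 8 of the 10 genes, which was so for 6.5% of all genes, and NFE2L2 and GCLM were the exceptions. HCC4006 was lower than the mean of the other lines for 8 of 10 genes, where 13.8% of all genes were lower. Its 3 libraries lay below the other 9 for NQO1, GCLC, GCLM and TXNRD1, as for 5.16% of all genes. The mean of the other lines includes NCI-H2228, whose high levels lower the difference of HCC4006. The contrasts of the lines are thus not independent of each other. For SLC7A11 HCC4006 overlapped with LC-2/ad, for KEAP1 it lay above LC-2/ad, and for AKR1C1 and AKR1B10 its mean was above that of NCI-H2009. An F test for any difference between lines passed for 10 of 10 genes and for 61.2% of all genes. The contrast of 1 line with the rest was chosen after these levels were seen, and the 3 libraries of a line differ in state and are not labelled as separate cultures of one state, so its p speaks of the spread between them after state was taken out.

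**Figure D1:**
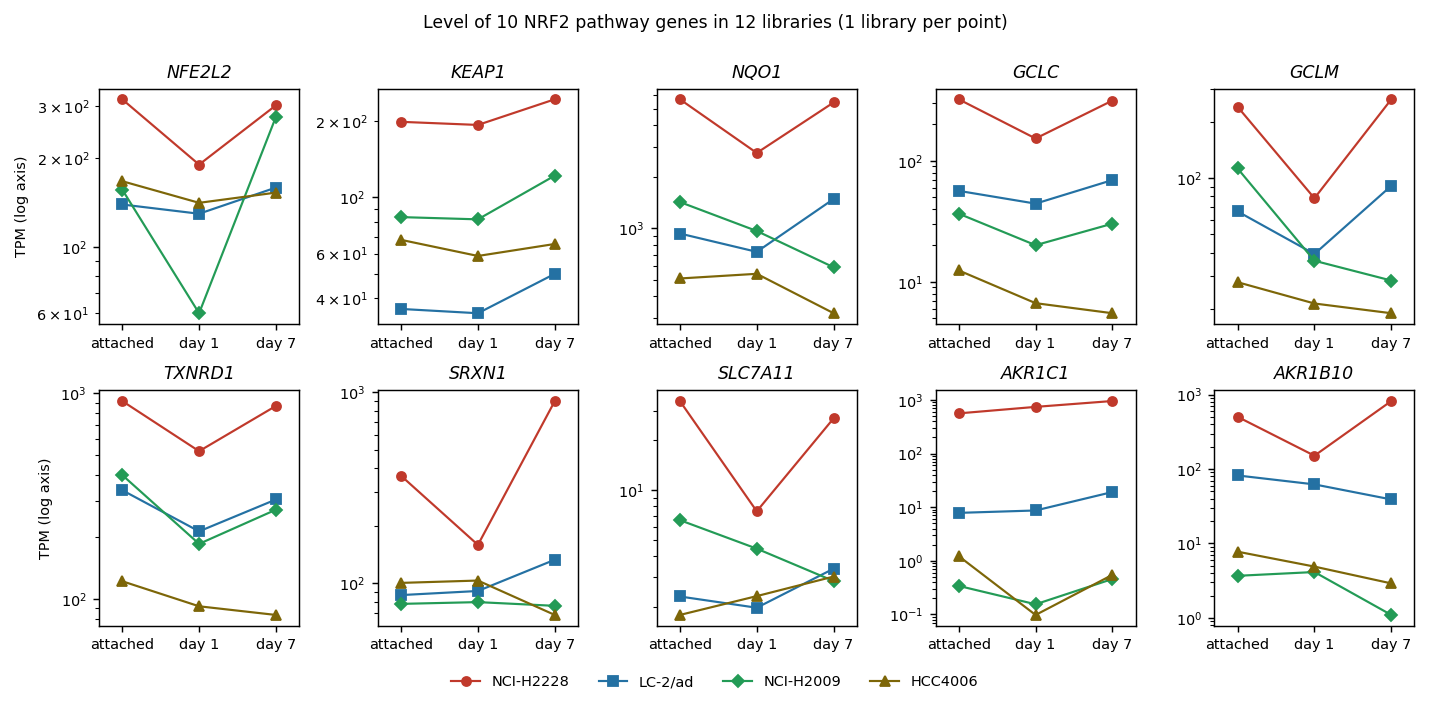
Level of each gene in TPM on a log axis (each panel has its own range) in attached cells, at day 1 and at day 7; each point is 1 library and lines join the libraries of 1 cell line. NCI-H2228 lies on top in each panel, and for AKR1C1 its lowest library is 29.2 times the highest of the other lines.

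NFE2L2, the transcription factor gene, lies on chromosome 2 (177227595 to 177392697, minus strand, GRCh38). It measured 316, 190.3 and 302 TPM in NCI-H2228 in attached cells, at day 1 and at day 7, against 139.5, 129.9 and 159 TPM in LC-2/ad, 157, 59.9 and 276 TPM in NCI-H2009 and 167, 141 and 153 TPM in HCC4006. NCI-H2228 was the highest line in each state, but its day 1 library stood below the day 7 library of NCI-H2009, so the lines overlapped. The log2 difference of NCI-H2228 from the other lines was 0.90 ± 0.21 (SE), the smallest of the 10 (edgeR adjusted p = 0.00744). Without the attached library of NCI-H2228 it was 0.82 with an adjusted p of 0.0517. The low point of the set was NCI-H2009 at day 1. Cell line took 37.5% of the variance of NFE2L2 on the log2 scale and state 31.6%, the lowest share by line among the 10 genes. Of the 50-base stretches in NFE2L2 transcripts, 13.2% also occur in AC019080.1, a noncoding gene on the same strand, which reached at most 3.37 TPM.

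KEAP1, which codes for the sensor that holds NRF2 down, lies on chromosome 19 (10486125 to 10503558, minus strand). KEAP1 measured 198, 193 and 243 TPM in NCI-H2228 in attached cells, at day 1 and at day 7. The values in the same order were 36.4, 35.0 and 49.98 TPM in LC-2/ad, 83.6, 81.9 and 122 TPM in NCI-H2009 and 68.0, 58.8 and 65.5 TPM in HCC4006. The 4 lines did not overlap, in the order NCI-H2228, NCI-H2009, HCC4006, LC-2/ad. NCI-H2228, with the highest transcript level of the targets, thus also had the highest transcript level of the inhibitor, by a log2 difference of 1.78 ± 0.13 (edgeR adjusted p = 1.22e-05). LC-2/ad was lower than the other lines by a log2 difference of -1.38 ± 0.15 (adjusted p = 0.000279), the only one of the 10 genes past the threshold on the lower side there, where 13.4% of all genes were lower. Its 3 libraries lay below the other 9, as they did for 5.0% of all genes. KEAP1 transcripts say nothing of the protein or of its sequence.

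NQO1 codes for a quinone reductase and is a widely used readout of NRF2 activity. It lies on chromosome 16 (69706996 to 69726668, minus strand). NQO1 stood at 5692, 2762 and 5456 TPM in NCI-H2228 in attached cells, at day 1 and at day 7, against 933, 729 and 1486 TPM in LC-2/ad, 1426, 965 and 592 TPM in NCI-H2009 and 509, 542 and 319 TPM in HCC4006. NCI-H2228 did not overlap with any line, LC-2/ad and NCI-H2009 overlapped, and HCC4006 lay below the rest. The log2 difference was 2.55 ± 0.31 for NCI-H2228 against the other lines (edgeR adjusted p = 0.000224) and -1.91 ± 0.38 for HCC4006 (adjusted p = 0.00372). The mean over the 3 states was 10.1 times as high in NCI-H2228 as in HCC4006. NQO1 lies opposite a noncoding gene, AC092115.2, at 1.07 to 18.4 TPM, and use of strand is not given in the sources used here.

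Of the glutathione genes, GCLC and GCLM code for the catalytic and the modifier subunit of glutamate-cysteine ligase, the first and rate-limiting step of glutathione synthesis. GCLC is on chromosome 6 (53497341 to 53616970, minus strand) and GCLM on chromosome 1 (93885199 to 93909456, minus strand). GCLC measured 322, 153 and 315 TPM in NCI-H2228 in attached cells, at day 1 and at day 7, against 56.5, 44.3 and 69.4 TPM in LC-2/ad, 36.6, 20.1 and 30.3 TPM in NCI-H2009 and 12.4, 6.67 and 5.51 TPM in HCC4006. No pair of lines overlapped, and the mean in NCI-H2228 was 32.1 times that in HCC4006. The log2 difference for GCLC was 3.46 ± 0.21 for NCI-H2228 against the other lines (edgeR adjusted p = 4.48e-06), -3.08 ± 0.28 for HCC4006 (4.42e-05) and -0.86 ± 0.24 for NCI-H2009 (0.0178).

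GCLM measured 241, 78.1 and 264 TPM in NCI-H2228 in attached cells, at day 1 and at day 7, against 66.4, 39.3 and 91.1 TPM in LC-2/ad, 113, 36.2 and 28.3 TPM in NCI-H2009 and 27.8, 21.4 and 19.0 TPM in HCC4006. Only the day 1 library of NCI-H2228 lay within the range of other lines, below attached NCI-H2009 and day 7 LC-2/ad. For GCLM the difference of NCI-H2228 from the other lines was 2.14 ± 0.36 on the log2 scale (edgeR adjusted p = 0.00142) and that of HCC4006 was -1.94 ± 0.44 (0.00713). The spread between lines was thus smaller for the modifier than for the catalytic subunit, with a ratio of 8.56 between the means of the highest and the lowest line.

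SLC7A11, the cystine transporter that brings in the scarce building block of glutathione, lies on chromosome 4 (138164097 to 138242349, minus strand) and had the lowest level of the 10 genes in NCI-H2228. It measured 34.2, 7.46 and 27.0 TPM there in attached cells, at day 1 and at day 7, against 2.3, 1.97 and 3.38 TPM in LC-2/ad, 6.60, 4.45 and 2.85 TPM in NCI-H2009 and 1.78, 2.31 and 3.03 TPM in HCC4006. The day 1 library of NCI-H2228 was 1.13 times the highest library of the other lines, so the separation there was narrow. The log2 difference of NCI-H2228 was 2.88 ± 0.36 (edgeR adjusted p = 0.000303). HCC4006 stood at -1.31 ± 0.43 (0.0403).

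Of the thioredoxin genes, TXNRD1 codes for the reductase that recharges thioredoxin with NADPH. TXNRD1 is on chromosome 12 (104215779 to 104350307, plus strand). Its level was 918, 523 and 869 TPM in NCI-H2228 in attached cells, at day 1 and at day 7, against 338, 213 and 305 TPM in LC-2/ad, 401, 185 and 272 TPM in NCI-H2009 and 122, 92.1 and 83.6 TPM in HCC4006. NCI-H2228 lay above the rest, LC-2/ad and NCI-H2009 overlapped, and HCC4006 lay below the rest. The log2 difference was 2.03 ± 0.17 for NCI-H2228 against the other lines (edgeR adjusted p = 2.4e-05) and -2.02 ± 0.21 for HCC4006 (8.65e-05). RPL18AP3, a pseudogene within TXNRD1 on the same strand, was listed at 48.1 to 152 TPM. Of the 50-base stretches in TXNRD1 transcripts, 0.0% also occur in another gene. How reads of overlapping genes were divided is not given in the sources used.

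SRXN1 codes for sulfiredoxin, which restores overoxidized peroxiredoxins, and lies on chromosome 20 (646615 to 653200, minus strand). It measured 365, 159 and 899 TPM in NCI-H2228 in attached cells, at day 1 and at day 7, against 86.9, 91.3 and 133 TPM in LC-2/ad, 78.2, 79.8 and 76.3 TPM in NCI-H2009 and 101, 103 and 68.4 TPM in HCC4006. The 9 libraries of the other lines lay close together, and those of NCI-H2228 spread over the widest range of any line for this gene. The log2 difference of NCI-H2228 was 2.27 ± 0.38 (edgeR adjusted p = 0.00132), and without its day 7 library it was 1.49 (0.00881). HCC4006 did not pass (-0.71 ± 0.41, adjusted p = 0.214), and neither did NFE2L2 in that line (-0.17 ± 0.22, 0.582). Of the 50-base stretches of SRXN1, 84.8% occur in AL121758.1 as well, an overlapping gene listed at 0.06 TPM or less.

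The aldo-keto reductases AKR1C1 and AKR1B10, which reduce carbonyl compounds such as steroids and retinal with NADPH, differed most between lines. AKR1C1 is on chromosome 10 (4963253 to 4983283, plus strand). AKR1C1 measured 559.5, 739.7 and 952 TPM in NCI-H2228 in attached cells, at day 1 and at day 7, against 7.83, 8.68 and 19.2 TPM in LC-2/ad, 0.341, 0.155 and 0.459 TPM in NCI-H2009 and 1.22, 0.098 and 0.549 TPM in HCC4006. NCI-H2228 and LC-2/ad stood apart from each other and from the other two lines, which overlapped near 0. NCI-H2009 held 10, 5 and 7.05 estimated counts and HCC4006 29.3, 9 and 11.4, and these lines were not tested against each other. The log2 difference for AKR1C1 was 9.43 ± 0.32 for NCI-H2228 (edgeR adjusted p = 1.84e-07), 1.40 ± 0.30 for LC-2/ad (0.00781), -4.57 ± 0.43 for HCC4006 (5.81e-05) and -6.26 ± 0.47 for NCI-H2009 (1.8e-05). LC-2/ad was higher for 2 of the 10 genes, where 15.3% of all genes were higher, and NCI-H2009 lower for 3, where 17.5% of all genes were lower. AKR1C1 shares 28.3% of its 50-base stretches with AKR1C2, so reads of the near-identical pair may have been divided between them.

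AKR1B10 is on chromosome 7 (134527567 to 134541412, plus strand). It measured 504, 151 and 821 TPM in NCI-H2228 in attached cells, at day 1 and at day 7, against 82.1, 62.2 and 39.1 TPM in LC-2/ad, 3.68, 4.14 and 1.10 TPM in NCI-H2009 and 7.76, 4.89 and 2.91 TPM in HCC4006. The order of the lines was as for AKR1C1, with NCI-H2009 and HCC4006 overlapping at the low end. For AKR1B10 the log2 difference was 5.75 ± 0.53 for NCI-H2228 (edgeR adjusted p = 4.9e-05), 1.56 ± 0.49 for LC-2/ad (0.0367), -3.18 ± 0.64 for HCC4006 (0.0042) and -4.14 ± 0.69 for NCI-H2009 (0.00146). Without the day 7 library of NCI-H2228 the AKR1B10 difference of that line was 4.55, and without the day 1 library it was 6.45. It shares 9.69% of its 50-base stretches with AKR1B15.

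**Figure D2:**
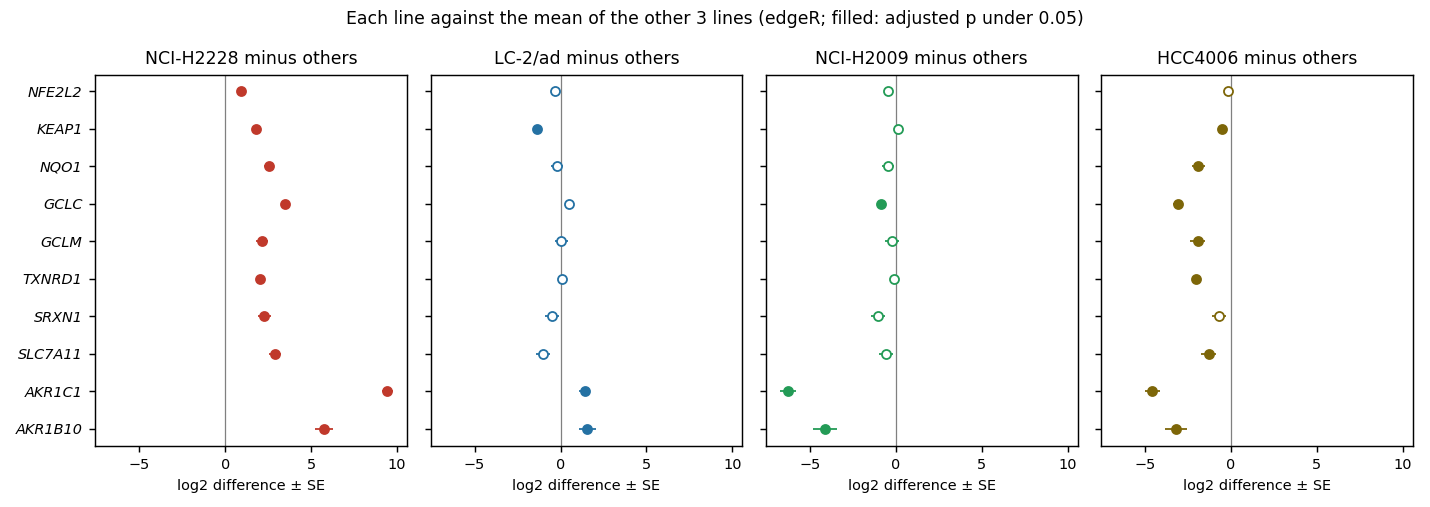
Log2 difference of each cell line from the mean of the other 3 lines (x axis, ± SE, edgeR, 3 libraries per line); filled points have an adjusted p under 0.05 over all genes. All 10 genes lie right of 0 for NCI-H2228, up to 9.43 for AKR1C1, and 8 genes have filled points left of 0 for HCC4006.

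The study's question was what changes when the cells lose attachment, and the test of it asks for a change shared by the lines. In edgeR with the cell line as block, 0 of 10 genes passed at day 1 against attached, where 0.489% of all genes passed. None of the 10 passed at day 7 against attached either, where 0.103% of all genes passed, nor at day 7 against day 1, where 0.0% did. The unadjusted p was under 0.05 for 3, 0 and 1 of the 10 genes in these contrasts, against 19.6%, 15.7% and 9.78% of all genes. DESeq2 called 1 of the 10, TXNRD1 at day 1, where it called 9.74% of all genes fitted, so 1 of 10 is near that share, and limma on log2(TPM + 1) called none. Over all genes edgeR called 26 higher and 59 lower at day 1 and 1 higher and 17 lower at day 7, and these counts were 1 and 1 at day 1 and 1 and 5 at day 7 with DESeq2's size factors, and 44 and 181 and 0 and 13 with limma. DESeq2 itself called more genes, in a different balance, with 944 higher and 751 lower at day 1 and 592 higher and 561 lower at day 7. For day 7 against day 1, edgeR called 0 genes with 1702 at an unadjusted p under 0.05, DESeq2 192 and limma 0. The tests compare 4 lines at a time, and a p that misses the threshold does not show that a gene was steady.

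TXNRD1 came nearest to the threshold at day 1. It averaged 445 ± 337 TPM in attached cells, 253 ± 187 TPM at day 1 and 382 ± 339 TPM at day 7 (SD, n = 4 lines). It was lower at day 1 in the 4 lines, with a log2 change of -0.62 ± 0.19 (edgeR adjusted p = 0.134; DESeq2 -0.61, adjusted p = 0.0248). GCLM stood at -1.09 ± 0.41 (edgeR adjusted p = 0.188) and GCLC at -0.60 ± 0.24 (0.211), the other 2 genes with an unadjusted p under 0.05. SLC7A11 stood at -0.83 ± 0.43 and NFE2L2 at -0.43 ± 0.23, with adjusted p of 0.316 and 0.332. NQO1, AKR1C1 and AKR1B10 stood between -0.31 and -0.26. KEAP1 stood at 0.06 ± 0.15 and SRXN1 at 0.01 ± 0.41, and both signs turned with limma on log2(TPM + 1), to -0.08 and -0.26, a scale on which the median of all genes was -0.08.

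TXNRD1 again had the smallest p of the 10 at day 7 against attached, with a log2 change of -0.40 ± 0.19 (edgeR adjusted p = 0.346). It was the one gene of the 10 that was lower in each of the 4 lines at day 7, as 12.1% of all genes were. The other log2 changes lay between -0.64 ± 0.58 for AKR1B10 and 0.40 ± 0.42 for SRXN1. At day 7 against day 1, NFE2L2 stood at 0.58 ± 0.23 (adjusted p = 0.495), and it was higher in the 4 lines together with KEAP1 and AKR1C1, as 13.2% of all genes were. The 2 detached states were each set against the same attached libraries, so their changes share those values.

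**Figure D3:**
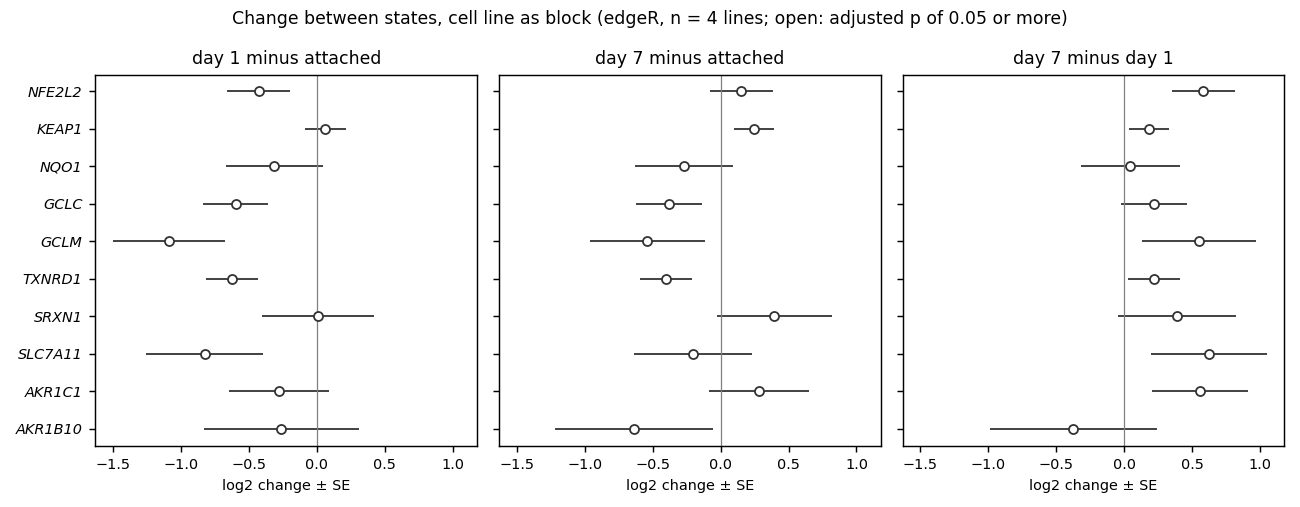
Log2 change between states (x axis, ± SE) in edgeR with the cell line as block, n = 4 lines per state; open points have an adjusted p of 0.05 or more over all genes. All 30 points are open, and at day 1 against attached 8 of 10 lie left of 0.

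Within single lines the values differed between states in different ways. Each of these differences compares 2 libraries on log2(TPM + 1), with no replicate and no test, and no term for line by state could be fitted. They carry no TMM scaling between libraries, unlike the tested changes. In NCI-H2228 the TMM factors were 0.9946 in attached cells, 0.9031 at day 1 and 0.9777 at day 7. Differences just past 2-fold, such as those of NQO1 and GCLC, can thus depend on the scale. In NCI-H2228, 9 of the 10 genes were lower at day 1 than in attached cells, as 53.9% of all genes were. The exception was AKR1C1, at 0.40. Its near-identical neighbour AKR1C2 went the other way, with 1142 TPM in attached cells and 944 TPM at day 1 in that line. How reads were divided between the pair was not tested. For 6 of the 9 lower genes the difference was 2-fold or more, against 6.63% of all genes: SLC7A11 (-2.06), AKR1B10 (-1.73), GCLM (-1.61), SRXN1 (-1.20), GCLC (-1.07) and NQO1 (-1.04). By day 7 all 10 were higher than at day 1 in that line, as 54.9% of all genes were, and 5 were 2-fold or more higher, against 3.47% of all genes. SRXN1 (2.49) and AKR1B10 (2.43) had the largest differences.

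At day 1 GCLC, GCLM, SRXN1, SLC7A11 and AKR1B10 in NCI-H2228 thus stood at least 2-fold below both the attached and the day 7 library, as 1.44% of all genes did. Against attached cells, 5 genes were higher and 5 lower there at day 7 (49.9% and 48.3% of all genes), and SRXN1 (1.30), AKR1C1 (0.77) and AKR1B10 (0.70) were the highest. In these bulk libraries a lower level in every cell and a smaller share of cells with the transcript cannot be told apart.

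In LC-2/ad 8 of the 10 genes were lower at day 1 than in attached cells (48.5% of all genes), none by 2-fold (2.25% of all genes), and 8 were higher at day 7 than in attached cells (52.4% of all genes). AKR1B10 (-1.05) and TXNRD1 (-0.15) were the 2 that were lower at day 7. LC-2/ad also had 7 of the 10 genes lower at day 1 than in both other states, as 32.4% of all genes were. The count was 9 in NCI-H2228 (41.1% of all genes), 5 in NCI-H2009 (49.8%) and 3 in HCC4006 (31.3%), the last 2 near the share of all genes. The day 7 library of LC-2/ad was above its day 1 library for 9 of the 10 (53.1% of all genes), and by 2-fold or more for GCLM (1.19), AKR1C1 (1.06) and NQO1 (1.03), against 3.26% of all genes. In NCI-H2009 8 were lower at day 1 (59.7% of all genes) and 3 of them by 2-fold or more, GCLM (-1.61), NFE2L2 (-1.37) and TXNRD1 (-1.11), against 17.4% of all genes. GCLM (-1.95), NQO1 (-1.27) and AKR1B10 (-1.16) were lower at day 7 by more than 2-fold in NCI-H2009, against 5.94% of all genes.

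In HCC4006 7 of the 10 were lower at day 1 (56.2% of all genes), with AKR1C1 (-1.02) the one past 2-fold, where 2.54% of all genes were, on 9 estimated counts at day 1 and 29.3 in attached cells. At day 7 9 of 10 were lower in HCC4006 than in attached cells (58.0% of all genes), and SLC7A11 (0.53) was the exception. NFE2L2, KEAP1, GCLC, GCLM and TXNRD1 were lower at day 1 in each of the 4 lines, as 21.3% of all genes were. For KEAP1 the differences were small. They lay above the median of all genes in NCI-H2009 (-0.03 against -0.17) and NCI-H2228 (-0.04 against -0.05). They lay below it in HCC4006 (-0.21 against -0.05) and LC-2/ad (-0.05 against 0.0). The TMM-scaled edgeR change of KEAP1 was 0.06 ± 0.15, so a shared fall of KEAP1 was not shown. No gene of the 10 was at least 2-fold lower in the 4 lines at either time.

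**Figure D4:**
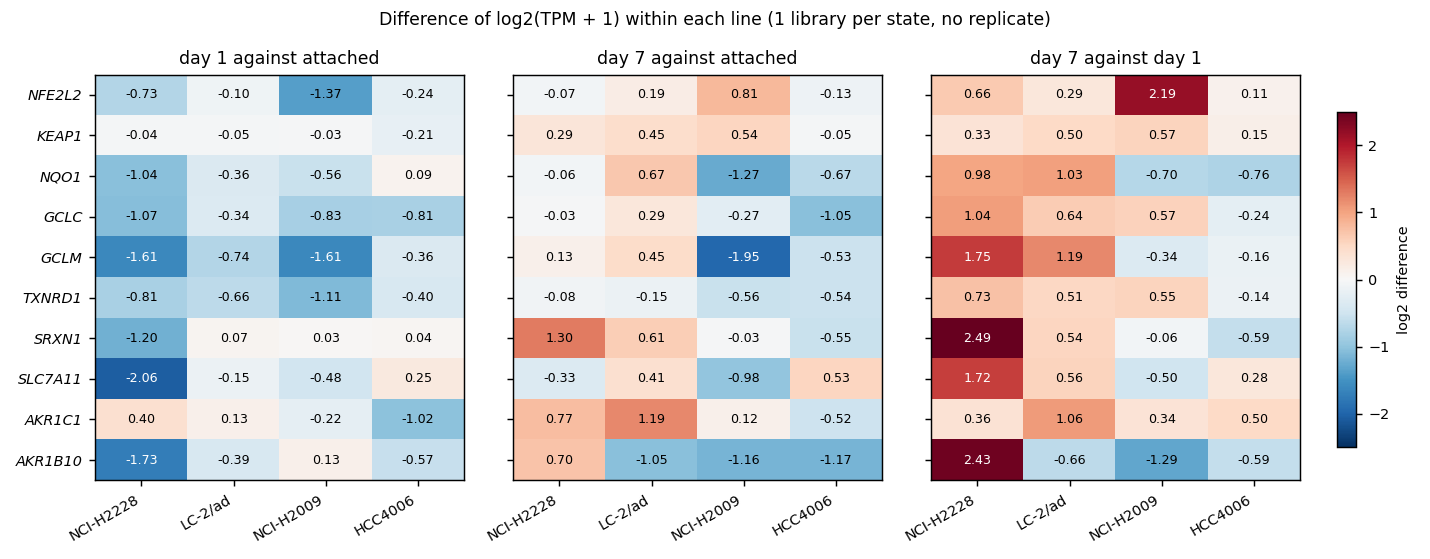
Difference of log2(TPM + 1) between states (color and number) for each gene and cell line, from 2 libraries each with no replicate. At day 1 the NCI-H2228 column holds 6 values of -1.04 or below, and at day 7 against day 1 its 10 values lie between 0.33 and 2.49.

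Wider lists of the pathway were read off the same fit, for NCI-H2228 against the other lines, where 20.7% of all genes were higher and 15.8% lower. Carbonyl and quinone reduction and conjugation held 13 genes higher and 0 lower of 17 tested, with a median log2 difference of 2.83. EPHX1, an epoxide hydrolase, stood at 189, 329 and 340.5 TPM in NCI-H2228 in attached cells, at day 1 and at day 7, against means of 76.9, 12.9 and 17.4 TPM in LC-2/ad, NCI-H2009 and HCC4006 (3.42 ± 0.16, edgeR adjusted p = 8.94e-07). PTGR1, which reduces reactive aldehydes, was higher by 4.21 ± 0.20, and the AKR1C1 neighbours AKR1C2 and AKR1C3 by 8.06 ± 0.38 and 5.77 ± 0.31. AKR1C2 measured 944 to 1973 TPM in NCI-H2228, against a mean of 131 TPM in LC-2/ad, 1.45 TPM in NCI-H2009 and 1.14 TPM in HCC4006.

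The glutathione list held 9 genes higher and 2 lower of 19, with a median of 0.29. The 4 with the smallest p were higher: the glutathione peroxidase GPX2 (6.91 ± 0.43), glutaredoxin GLRX (3.48 ± 0.23), the export pump ABCC2 (7.33 ± 0.50) and glutathione reductase GSR (1.81 ± 0.19), with edgeR adjusted p of 9.23e-05 or less. Thioredoxin and peroxiredoxin genes held 3 higher and 2 lower of 13 with a median of 0.20, shares near those of all genes. Cytosolic thioredoxin TXN (1.16 ± 0.26) and the stress protein SESN2 (1.97 ± 0.51) were higher, and the mitochondrial pair TXN2 (-1.11 ± 0.19) and TXNRD2 (-1.05 ± 0.22) lower. TXN2 measured 62.0 to 68.7 TPM in NCI-H2228, against means of 138 to 149 TPM in the other lines.

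NADPH supply held 6 higher and 1 lower of 10 (median 1.02), with PGD and TALDO1 of the pentose phosphate pathway at 1.96 ± 0.17 and 1.01 ± 0.19, PGLS of the same pathway at 1.03 ± 0.17 and malic enzyme ME1 at 1.72 ± 0.27. Heme and iron genes held 6 higher and 0 lower of 10 (median 0.88), among them the ferritin chains FTL (1.94 ± 0.39) and FTH1 (1.52 ± 0.35), biliverdin reductase BLVRA (0.96 ± 0.18) and FECH (1.09 ± 0.19), which puts iron into heme. BLVRA was highest in HCC4006, with a mean of 439 TPM against 304 TPM in NCI-H2228. Its log2 difference in HCC4006 from the other lines was 1.69 ± 0.18 (edgeR adjusted p = 0.000103). HMOX1, heme oxygenase, was looked up after its values were seen. It did not pass (0.58 ± 0.35, edgeR adjusted p = 0.233), with 19.1, 44.1 and 21.1 TPM in NCI-H2228 and a mean of 121 TPM in NCI-H2009.

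Genes that control NRF2 held 6 higher and 2 lower of 14 (median 0.23), the lower share being near that of all genes. SQSTM1, the autophagy receptor that binds KEAP1, measured 3559, 7952 and 10016 TPM in NCI-H2228 in attached cells, at day 1 and at day 7, against means of 1845 TPM in LC-2/ad, 959 TPM in NCI-H2009 and 910 TPM in HCC4006 (2.63 ± 0.35, edgeR adjusted p = 0.00037). The NRF2 partner MAFG was higher (0.95 ± 0.21), and the ubiquitin ligase part RBX1 was lower (-0.80 ± 0.21). BACH2, a repressor, was lower at a level of 0.882 TPM or less in NCI-H2228. BACH1, another repressor, named after its values were seen, was higher (1.49 ± 0.39, edgeR adjusted p = 0.0150), with a mean of 33.7 TPM in NCI-H2228 against means of 13.4 to 15.1 TPM in the other lines. Of a lung cancer NRF2 signature 9 were higher and 0 lower of 15 (median 1.06), among them KYNU (6.73 ± 0.29), CYP4F11 (4.97 ± 0.34), OSGIN1 (3.30 ± 0.43) and JAKMIP3 (3.78 ± 0.59), the last at 2.01 TPM or less.

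**Figure D5:**
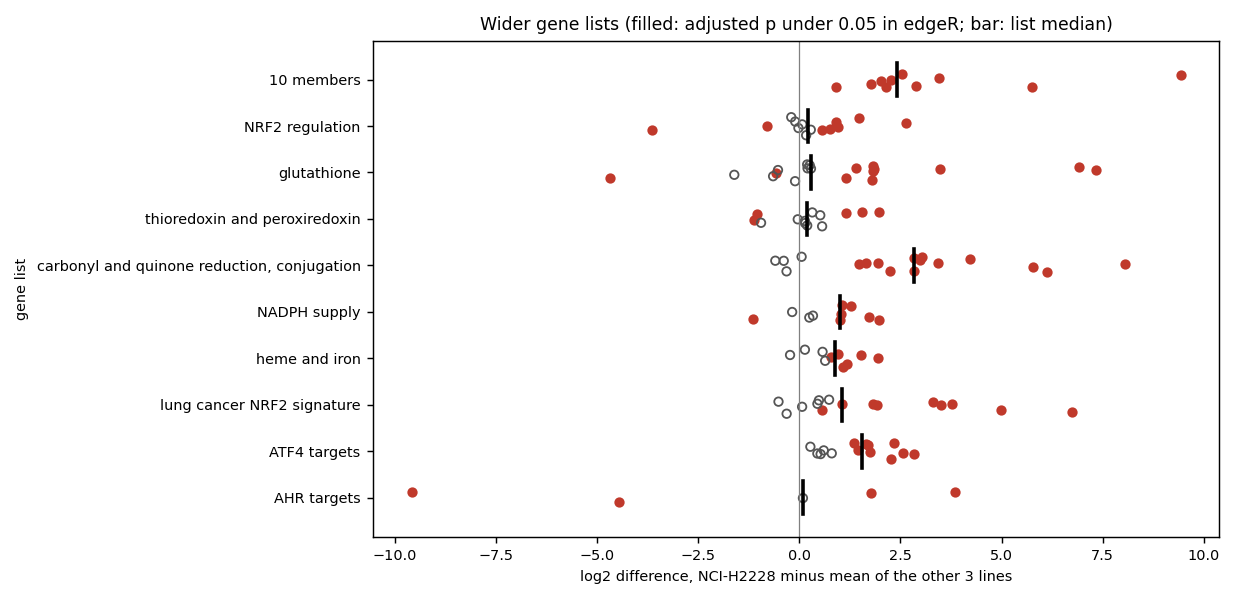
Log2 difference of NCI-H2228 from the mean of the other 3 lines (x axis, edgeR) for each tested gene of the 10 members and of 9 wider lists (rows); filled points have an adjusted p under 0.05 and the bar is the list median. The carbonyl and quinone list has the highest median of the 9 wider lists, 2.83, and the glutathione and thioredoxin medians lie at 0.29 and 0.20.

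Lists of other stress programs were read off in the same way. ATF4, a transcription factor of the amino acid response, is known to act on SLC7A11 as well, and ATF4 with its targets held 9 higher and 0 lower of 14 in NCI-H2228 (median 1.56), among them TRIB3 (2.83 ± 0.44), CEBPB (1.70 ± 0.28), PSAT1 (2.28 ± 0.43) and SHMT2 (1.34 ± 0.28). At day 1 in NCI-H2228, 13 of these 14 stood below both the attached and the day 7 library, as 41.1% of all genes did. For 6 the gap was 2-fold or more on both sides, against 1.44% of all genes: ASNS, CHAC1, DDIT3, TRIB3, PSAT1 and SLC7A5. They were chosen for this after their values were seen. ASNS, asparagine synthetase, stood at 99.5, 30.2 and 186 TPM in attached cells, at day 1 and at day 7. The gap was that large for 2 of 15 genes in the lung cancer signature, OSGIN1 and TRIM16L. It was so for 1 of 13 in the thioredoxin list, SESN2, and for 0 genes in the other 6 lists.

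The list of the aryl hydrocarbon receptor AHR, which shares detoxifying enzymes with NRF2, and of its targets held 2 higher and 2 lower of 5 tested. The receptor gene AHR (1.76 ± 0.32) and the target CYP1B1 (3.84 ± 0.68) were higher in NCI-H2228. CYP1A1 was lower, at 0.213 TPM or less against means of 309, 35.6 and 88.3 TPM in LC-2/ad, NCI-H2009 and HCC4006, and AHRR was lower at 0.031 TPM or less, so their fitted differences depend on near-zero libraries.

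Across states 0 genes of the 9 lists passed in any of the 3 contrasts, where 0.489%, 0.103% and 0.0% of all genes passed, so a count near 0 is what those shares give for lists of this size. At day 1 against attached the median log2 changes of the 9 lists lay between 0.15 for NRF2 regulation and 0.60 for heme and iron. The median was 0.0075 for all genes and -0.37 for the 10 members, so the wider lists did not share the lower values of the members. The nearest at day 7 against attached, none past the threshold, were SQSTM1 (3840 ± 4272 against 1440 ± 1437 TPM, SD over 4 lines; 1.16 ± 0.42, edgeR adjusted p = 0.231) and the repressor BACH1 (1.10 ± 0.47) among the regulators, GSTA4 (1.44 ± 0.49) and ABCC3 (0.71 ± 0.31) for glutathione and PRDX1 (-0.66 ± 0.31) and PRDX6 (-0.45 ± 0.22) for peroxiredoxins. UGT1A6 (-3.56 ± 1.05) and AKR1A1 (0.60 ± 0.19) had the smallest p for conjugation and carbonyl reduction, with adjusted p of 0.167 and 0.181. NNT (0.56 ± 0.30) and NADK (0.44 ± 0.24) did for NADPH, SLC40A1 (1.31 ± 0.50) and BLVRA (0.39 ± 0.20) for heme and iron, and TRIM16L (-0.77 ± 0.35) and CYP4F3 (1.39 ± 0.80) for the signature. VLDLR (0.60 ± 0.27) and ATF3 (1.11 ± 0.56) did for ATF4 targets, and CYP1B1 (1.80 ± 0.88) and CYP1A1 (2.64 ± 1.31) for AHR targets. Not all peroxiredoxins were lower. PRDX5, named after its values were seen, stood at 0.86 ± 0.22 at day 1 and 0.41 ± 0.21 at day 7 against attached. The median of the thioredoxin and peroxiredoxin list was 0.35 at day 1 and -0.12 at day 7 against attached. At day 7 against day 1 it was -0.45, against 0.0201 for all genes.

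The profiles of the 10 genes across the 12 libraries lay at unequal distances from each other. Profiles of log2(TPM + 1) were centred on their own mean and compared by the root mean square difference in log2 units, as a description. They were not scaled, so a distance holds differences in range as well as in shape and does not tell them apart. NQO1 and GCLM were the closest pair, at 0.40, and NFE2L2 and AKR1C1 the farthest, at 3.37. Cell line took from 71.9% (GCLM) to 98.9% (AKR1C1) of the variance of the 9 genes other than NFE2L2, beside a median of 64.6% for all genes tested.

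Among 10286 protein-coding candidates outside the 10 genes, the nearest to NQO1 over the 12 libraries were OSGIN1 (0.39), UGDH (0.53) and PNMA1 (0.54). OSGIN1 ranged from 131 to 400.1 TPM in NCI-H2228 and from 9.23 to 70.5 TPM in the other lines. Nearest to SLC7A11 were ARHGEF2 (0.37), PMAIP1 (0.47) and PSAT1 (0.48), nearer than any of the other 9 genes, of which NQO1 was closest at 0.54. Nearest to AKR1C1 were the secreted proteins SPP1 (0.62) and C1S (0.76) and the peroxidase GPX2 (1.08), all nearer than AKR1B10 at 1.48. For SLC7A11 and AKR1C1 the nearest of 10286 candidates was set against the nearest of 9 members, so a nearer candidate is likely. SPP1 ranged from 293 to 1090.2 TPM in NCI-H2228, from 4.25 to 4.96 TPM in LC-2/ad and up to 0.323 TPM in the other lines.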

How the data were processed

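Per the labels' protocols, total RNA of the 12 samples was purified with RNeasy and made into libraries with SMART-Seq v4 PLUS. The authors deposited 1 table with an estimated count and a TPM value for each gene and library, per the file headers. The deposited TPM values add up to 1000000 per library and are scaled for transcript length. The deposited estimated counts are not normalized, and 31.5% of those above 0 are not whole numbers. The genome build GRCh38 is named in the submitters' processing notes, whereas the aligner, counting tool, gene annotation and strand setting are not given in the sources used.

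Estimated counts were rounded, and the quasi-likelihood test of edgeR 4.0.16 (R 4.3.3) was run on them after filterByExpr by state (17395 of 60715 genes kept) and TMM scaling. The model held state and cell line, with 6 residual degrees of freedom, and 38.7% was the biological coefficient of variation. P-values of all tested genes were adjusted together by Benjamini-Hochberg, those under 0.05 passed, and the SE follows from the fold change and its F statistic. The cell line served as block because each line gives 1 library per state. Deviations from the state means correlated at 0.715 to 0.818 over 12 pairs of libraries of the same line and at -0.38 to -0.094 over 36 pairs of different lines. Taking out the state mean by itself makes the correlations between lines negative on average. Since the labels name no separate cultures, p-values measure the spread between these samples. Differences within a line use log2(TPM + 1), with a pseudocount of 1. With PCR and no molecular identifiers, depth covers counting error only.

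Alternatives were DESeq2 1.42.0, limma 3.58.1 on log2(TPM + 1) and log2(TPM + 0.1), other size factors and filters, no block, fits of 2 states, and leaving out each line and library. The 10 members and the 9 wider lists, 123 genes, were chosen with earlier results of these data known. Named genes are the 10 members, up to 4 genes per list past the threshold with the smallest p in the contrast of NCI-H2228 with the other lines, and otherwise the 2 with the smallest p at day 7 against attached. For NQO1, SLC7A11 and AKR1C1 the 3 nearest protein-coding genes are named, among those with 10 TPM in a library. Shared sequence was counted in 50-base stretches of annotated transcripts. Promoter windows come from RefSeq. The contrast of 1 line with the others was added after the levels were seen. Python 3.11.15 was used for the descriptions.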

Additional observations from a re-analysis of the deposited data

Results flagged for a closer look

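In each state the 4 lines give 1 value per gene, and 30 such sets of 4 were examined for a library far from the others. The gap between the highest library and the next, divided by the whole range of the 4, was past Dixon's 95% limit in 11 of them. Chance gives about 1 in 20 where values are normal and sets independent, whereas these are TPM values of the same 4 lines in 3 states, and 11.7% of such sets over all genes tested were past the limit. NCI-H2228 was the high library in all 11. For NFE2L2 the share was 0.843 in attached cells. For GCLC it was 0.858 in attached cells. SRXN1 had 0.922 in attached cells and 0.922 at day 7. SLC7A11 had 0.851 in attached cells and 0.978 at day 7. AKR1C1 had 0.987 in attached cells, 0.988 at day 1 and 0.98 at day 7. AKR1B10 had 0.843 in attached cells and 0.954 at day 7. At day 1 only AKR1C1 passed the limit, and KEAP1, NQO1, GCLM and TXNRD1 did not in any state.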

How the results depend on the processing

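NCI-H2228 was higher than the other lines for 9 or 10 of the 10 genes under the 16 alternatives run, and the log2 difference kept its sign in each. NFE2L2 was the gene lost, without the attached library of NCI-H2228. In the test of any line difference NFE2L2 was also the one gene lost, with limma and without each NCI-H2228 library in turn. Of the state changes, 0 of 10 genes passed in any alternative except DESeq2, which called 1 at day 1.

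The count of all genes called was less steady. At day 1 it was 85, against 2 with DESeq2's size factors in edgeR, 265 with no filter, 1695 with DESeq2, 225 and 223 with limma at pseudocounts of 1 and 0.1, and 0 with only the 2 states fitted. At day 7 against attached it was 18, against 6, 114 with no filter, 29 with the TPM filter, 1153 with DESeq2 and 1 with 2 states fitted. Leaving out 1 line or library gave 0 to 6 genes at day 1 and 0 to 69 at day 7, the highest without the day 1 library of NCI-H2009. At day 7 against day 1 it was 0, against 6 with no filter, 192 with DESeq2 and 1 with limma at a pseudocount of 0.1.

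Pairing by cell line mattered to the counts. With no replicate block 0 genes passed at day 1 and 0 at day 7, and the log2 change was -0.40 for SRXN1 and 0.51 for AKR1C1 at day 1, and 0.55 (day 7 against attached) and 1.86 (day 7 against day 1) for AKR1B10. None of these values passed.

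The limma scale with a pseudocount of 0.1 moved the median of all genes to -0.13 at day 1 and to 0.19 at day 7 against day 1. No sign that turned belonged to a value past the threshold. At day 1 KEAP1 stood at -0.083 and -0.084 with limma at pseudocounts of 1 and 0.1, and SRXN1 at -0.26 with both and at -0.11 with 2 states fitted. NQO1 stood at -0.0128 at day 7 against day 1 with 2 states fitted. Leaving out 1 line or library moved the day 1 change of GCLM between -1.32 and -0.65, of SLC7A11 between -1.11 and -0.47, of NFE2L2 between -0.57 and -0.21, of KEAP1 between -0.028 and 0.14, of SRXN1 between -0.29 and 0.37, of AKR1C1 between -0.86 and 0.079 and of AKR1B10 between -0.83 and 0.19. At day 7 against attached it moved GCLM between -0.91 and -0.0071, NFE2L2 between -0.10 and 0.26, NQO1 between -0.64 and 0.068, SLC7A11 between -0.53 and 0.24, AKR1C1 between -0.18 and 0.65 and SRXN1 between -0.20 and 0.67. At day 7 against day 1 it moved NQO1 between -0.33 and 0.41, GCLC between -0.028 and 0.43, SRXN1 between -0.25 and 0.78 and AKR1B10 between -1.33 and 0.33. The cause was not tested. Depth limits the low genes, AKR1C1 in NCI-H2009 and HCC4006 first of all.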
